A study of Caenorhabditis elegans with 2 samples.

Results

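The genes described here are 140 developmental transcription factor genes of Caenorhabditis elegans, out of 19973 protein-coding genes on the nuclear chromosomes. They were chosen by name alone and by no measured value: the homeobox genes named ceh (63, without the Hox gene ceh-13), the 6 Hox genes, the homeobox genes pal-1 and vab-7, 25 basic helix-loop-helix genes named hlh, unc-120 and hnd-1, 19 T-box genes named tbx, 6 GATA genes named elt, the 4 endomesoderm genes named end and med, 10 forkhead genes with pha-4 among them, and 3 sox genes. The measurement was chromatin immunoprecipitation with sequencing of FLT-1, also named BAZ-2, a worm relative of the vertebrate BAZ2 chromatin proteins, and the question was where FLT-1 lay at these genes in early embryos. There was 1 group, early embryos of 1 hour collected by egg bleaching, with 2 biological replicates and no second condition. Both replicates were whole animals of strain OP797, which is unc-119(tm4063) and carries the integrated transgene wgIs797. That transgene is a fosmid with flt-1 fused to TY1, EGFP and 3xFLAG, with unc-119(+) as the rescue, so the protein followed was a tagged copy made beside the animals' own flt-1. It was recovered with an antibody against GFP, and a pool of whole embryos does not tell which cells a peak comes from.

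Homeobox, basic helix-loop-helix, T-box, GATA, forkhead and sox proteins bind DNA and set which genes a cell lineage uses. In the worm embryo, maternal factors start a chain of such genes that passes from broad founder cell fates to tissues such as gut, muscle, epidermis, pharynx and neurons. Many of these genes lie in long stretches of noncoding DNA and are silent in most cells until their lineage is set up.

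Values came from 8 deposited peak lists that hold no counts of reads, so how deeply each replicate was sequenced is unknown. A peak here is an entry of a thresholded list. The pooled list, made from both replicates together, had 1083 peaks, replicate 1 had 618 and replicate 2 had 747 on the nuclear chromosomes. A region is an entry of a ranked list, made before the threshold on the irreproducible discovery rate (IDR, the expected share of entries that do not repeat), and there were 48126 regions in the pooled ranked list. Most regions therefore did not pass the threshold. Signal is the authors' value for each entry and is used only to order entries within a list, also as a rank percentile in which 100 is the strongest. Intervals are exact 95% intervals, Clopper-Pearson for shares and Poisson for rates, and cover counting error only.

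FLT-1 peaks were found at the starts of 3 of the 140 transcription factor genes, hlh-1, ceh-38 and ceh-39. hlh-1 is the worm relative of MyoD and acts in body wall muscle. ceh-38 and ceh-39 encode homeodomain proteins of the ONECUT class, and ceh-39 is known as an X-linked signal in sex determination. A summit from 500 bp upstream to 200 bp downstream of a transcript start was counted. By that rule the share was 2.14% (0.444 to 6.13) of the transcription factor genes and 2.88% (572 of 19833) of other coding genes, and the interval holds the share of the other genes. By family these were 2 of 63 ceh genes, 1 of 25 hlh genes and none of the others.

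The sequences of these peaks are shown because they are all that the pooled thresholded list holds at the 140 genes. Each is the whole peak of 230 bp on the strand of its gene, 5′ to 3′, read from the RefSeq sequence of WBcel235, and capitals mark matches to the E-box CANNTG on either strand. The hlh-1 peak is II:4518351-4518580 (plus strand), with its summit at -108 bp from an annotated start (negative is upstream) and in no exon.
hlh-1: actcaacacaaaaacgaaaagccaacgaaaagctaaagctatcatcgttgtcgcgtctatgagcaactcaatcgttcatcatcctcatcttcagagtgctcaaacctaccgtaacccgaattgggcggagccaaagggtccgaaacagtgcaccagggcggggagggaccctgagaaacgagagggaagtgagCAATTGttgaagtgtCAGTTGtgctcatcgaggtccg
The ceh-38 peak is II:6951471-6951700 (plus strand), with its summit at -33 bp from one of the 11 annotated starts of the gene and inside an exon of ceh-38.
ceh-38: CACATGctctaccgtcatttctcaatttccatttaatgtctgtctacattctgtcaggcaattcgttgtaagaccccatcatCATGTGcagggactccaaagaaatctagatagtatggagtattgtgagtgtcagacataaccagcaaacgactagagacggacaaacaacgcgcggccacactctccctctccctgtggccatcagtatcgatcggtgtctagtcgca
The ceh-39 peak is X:1856335-1856564 (minus strand), with its summit at -278 bp from its only annotated start and in no exon.
ceh-39: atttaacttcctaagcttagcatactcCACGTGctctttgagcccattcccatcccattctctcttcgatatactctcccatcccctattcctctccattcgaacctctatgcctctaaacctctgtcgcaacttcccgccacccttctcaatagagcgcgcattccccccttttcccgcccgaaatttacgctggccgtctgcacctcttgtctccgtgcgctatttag
E-box matches numbered 2 at hlh-1, 2 at ceh-38 and 1 at ceh-39. Also searched on both strands were the GATA site AGATAA and the homeobox site TAATTA, with no match in the 3 peaks, and the B box core GTTCGA of tRNA genes and GAGAGA, with 1 match each at ceh-39. None of these matches overlap each other. An E-box match stood in 59.3% of the 230 bp before the outermost start of the transcription factor genes, in 56.1% of the same windows of other coding genes and in 61.1% of the 370 promoter peaks of that width, so a match in such a window is common. The B box core stood in 5.71%, 7.1% and 12.4% of these windows, GAGAGA in 26.4%, 18.1% and 29.5%, AGATAA in 22.9%, 17.5% and 4.59%, and TAATTA in 9.29%, 13.5% and 8.38%. The GC content was 50.4% at hlh-1, 47.0% at ceh-38 and 51.3% at ceh-39, against a median of 42.4% over the promoter peaks of that width.

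All 3 peaks ranked in the weaker part of the pooled list and stood more strongly in replicate 2. At hlh-1 the signal was 16.6 in the ranked list of replicate 1 (percentile 72.9, IDR 0.899) and 41.9 in that of replicate 2 (percentile 98.6, IDR 0.00177). At ceh-38 it was 24.5 in replicate 1 (percentile 94.1, IDR 0.315) and 34.4 in replicate 2 (percentile 98, IDR 0.0106). At ceh-39 it was 23.1 in replicate 1 (percentile 92.5, IDR 0.268) and 34.6 in replicate 2 (percentile 98, IDR 0.0135). Signals of the 2 replicates are not on a shared scale, but the percentile was higher in replicate 2 for each of the 3 genes. The hlh-1 region passed the threshold in replicate 2 alone, and those of ceh-38 and ceh-39 missed it in both replicates and passed only when the replicates were pooled.

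In the pooled list the signals were 62.9 at hlh-1, 58.8 at ceh-38 and 50.6 at ceh-39, places 723, 799 and 973 of 1083 and all below the list's median of 75.4. The score of ceh-39 was 833, next to the lowest score in the list of 831, so this gene is barely inside the threshold. No tRNA, snRNA or snoRNA gene lay within 250 bp of these 3 peaks. The ceh-38 summit also lay in the 500 bp promoter of malt-1, a gene on the other strand that starts close by, so this peak cannot be given to one of the 2 genes. Those at hlh-1 and ceh-39 lay in no other promoter of this size.

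Widening the promoter to 2000 bp upstream added no transcription factor gene in the pooled list. The share stayed at 3 of 140 (2.14%, 0.444 to 6.13), against 5.03% of other coding genes (997 of 19833). No peak had its summit in an intron of the 140 genes, which allows a share of up to 2.60%, against 1.17% of other coding genes (233 of 19833). With the wider promoter and introns counted together, the share was 3 of 140, against 5.96% of other coding genes. Each of these intervals holds the share of the other genes; for the joint count the upper bound of 6.13% is close to 5.96%.

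Of the thresholded lists of single replicates, that of replicate 1 named no transcription factor gene and that of replicate 2 named hlh-1 and 3 others. In replicate 1, 0 of the 140 genes had a peak in the 500 bp window, the 2000 bp window or an intron, against 1.53%, 2.78% and 0.822% of other coding genes. A count of 0 allows up to 2.60%, which is below the 2.78% of other genes in the 2000 bp window and below the 3.49% with windows and introns together. Per megabase of sequence this did not hold. In the 2000 bp windows, 0 summits allow up to 9.93 per megabase, and other coding genes had 8.56. Replicate 2 had 1 gene in the 500 bp window, which was hlh-1, against 1.88% of other coding genes, and 0 in an intron, against 0.842%. In its 2000 bp window there were 4 genes (2.86%, 0.784 to 7.15), against 3.35% of other coding genes. These were hlh-1, ceh-20, the worm relative of PBX and a partner of Hox proteins, ceh-44, a homeobox gene of the cut type, and ceh-58, another homeobox gene. No transcription factor gene was therefore in the thresholded lists of both replicates. Of all 1083 pooled peaks, wherever they lay, 434 were overlapped by a peak of each replicate list. Such a peak was at 0.943% of other coding genes in the 500 bp window and 1.87% in the 2000 bp window. With introns added the share was 2.47%. A count of 0, which allows up to 2.60%, holds each of these shares.

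The peaks of ceh-20 and ceh-58 are shown as the ones that replicate 2 placed in no 500 bp promoter of any coding gene. Each is the whole peak of 224 bp on the strand of its gene, with E-box matches in capitals. The ceh-20 peak is III:6978817-6979040 (plus strand), with its summit at -955 bp from a start.
ceh-20: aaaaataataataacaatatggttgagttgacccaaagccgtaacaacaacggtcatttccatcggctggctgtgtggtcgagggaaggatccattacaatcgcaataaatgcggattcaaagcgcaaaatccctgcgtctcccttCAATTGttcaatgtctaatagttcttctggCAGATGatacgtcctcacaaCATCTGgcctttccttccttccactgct
The ceh-58 peak is II:10370844-10371067 (minus strand), with its summit at -1359 bp from a start.
ceh-58: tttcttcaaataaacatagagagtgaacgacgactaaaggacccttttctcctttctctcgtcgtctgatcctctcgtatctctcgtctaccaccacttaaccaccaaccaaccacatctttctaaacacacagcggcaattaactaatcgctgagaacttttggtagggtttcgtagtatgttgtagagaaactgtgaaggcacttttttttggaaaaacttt
The first has 3 E-box matches and none of the other motifs, and the second has no E-box match and 2 matches to GAGAGA. At ceh-20 the signal was 16.5 in replicate 1 (percentile 71.9, IDR 0.913) and 41.95 in replicate 2 (percentile 98.6, IDR 0.000707). At ceh-58 it was 17.9 in replicate 1 (percentile 78.8, IDR 0.826) and 35.9 in replicate 2 (percentile 98.2, IDR 0.00722). At ceh-44 replicate 1 had no region there, and replicate 2 had a signal of 35.9 (percentile 98.2, IDR 0.00634). The ceh-44 summit lay at -1799 bp from a start and also in the 500 bp promoters of rbc-2, ndua-8 and Y54F10AM.15, so it cannot be given to ceh-44 alone. These 3 regions are named because they passed the threshold of replicate 2 and not that of replicate 1, so the order of their replicate values was fixed by that choice.

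Loosening the pooled ranked list to an IDR of 0.05 added 2 genes in the wider promoter and 1 in an intron. The 500 bp window kept the same 3 genes, against 3.9% of other coding genes. The 2000 bp window had 5 (3.57%, 1.17 to 8.14), with ceh-20 (pooled signal 58.6, IDR 0.0483) and ceh-44 (pooled signal 53.0, IDR 0.0254) besides those 3, against 6.97% of other coding genes. The intron was in elt-6, a GATA gene of the epidermis, at IV:1918074-1918303, and 1 gene of 140 (0.714%) compares with 1.76% of other coding genes. Its signal was 33.4 in the pooled ranked list and 22.3 in replicate 2 (percentile 94.6, IDR 0.854), and replicate 1 had no region that overlapped it. The neighbouring GATA gene egl-18, which falls outside the naming rule, had an intronic peak in the pooled thresholded list at IV:1908577-1908806 (signal 47.5), overlapped by a peak of replicate 2 and none of replicate 1.

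A further thresholded list that the authors call conservative had 2 of the 140 genes in the 2000 bp window (1.43%, 0.173 to 5.07), against 4.59% of other coding genes. With introns added the count was the same, against 5.46% of other coding genes, which lies above that interval. One was ceh-38 with the same peak. The other was ceh-2, a relative of the empty spiracles and EMX homeobox genes, whose peak at I:6051093-6051322 (signal 51.8) lay at -757 bp from a start and within 250 bp of the tRNA gene C27A12.t1. For that region the signal was 29.1 in replicate 1 (percentile 96.9) and 22.2 in replicate 2 (percentile 94.5), and its IDR in the pooled ranked list was 0.786, far from the threshold there.

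In the ranked lists, which hold entries above and below the threshold, regions at transcription factor gene starts were as common as at other genes or somewhat more so. In the pooled ranked list, 60 of 140 genes (42.9%, 34.5 to 51.5) had a region in the 500 bp window, against 36.5% of other coding genes. In the 2000 bp window 94 genes (67.1%, 58.7 to 74.8) had one, against 59.7%. Introns held a region at 60 genes (42.9%, 34.5 to 51.5), against 29.2% of other coding genes. Replicate 1 had a region in the 500 bp window at 65 genes (46.4%), against 38.2%, and replicate 2 at 52 genes (37.1%), against 34.5%.

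Among the strongest regions the shares were close to those of other genes. A region in the top 10% of the pooled ranked list lay in the 500 bp window of 9 genes (6.43%, 2.98 to 11.9), against 8.11% of other coding genes, and in the 2000 bp window of 22 genes (15.7%, 10.1 to 22.8), against 14.8%. Both intervals hold the share of the other genes. In the 500 bp window, at or above the 50th percentile there were 42 genes (30%), against 23.7% of other coding genes, and at or above the 80th percentile 16 genes (11.4%), against 12.6%. The median percentile of a gene's strongest region, over the genes that had one, was 71.5 (quartiles 40.4 and 81.3), against 65.2 (37.8 and 87.7) for other coding genes. That order did not hold in each replicate or in the wider window. The medians were 62.5 against 61.1 in replicate 1 and 60.8 against 62.8 in replicate 2, and in the 2000 bp window of the pooled list 70.8 against 71.8.

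**Figure D1:**
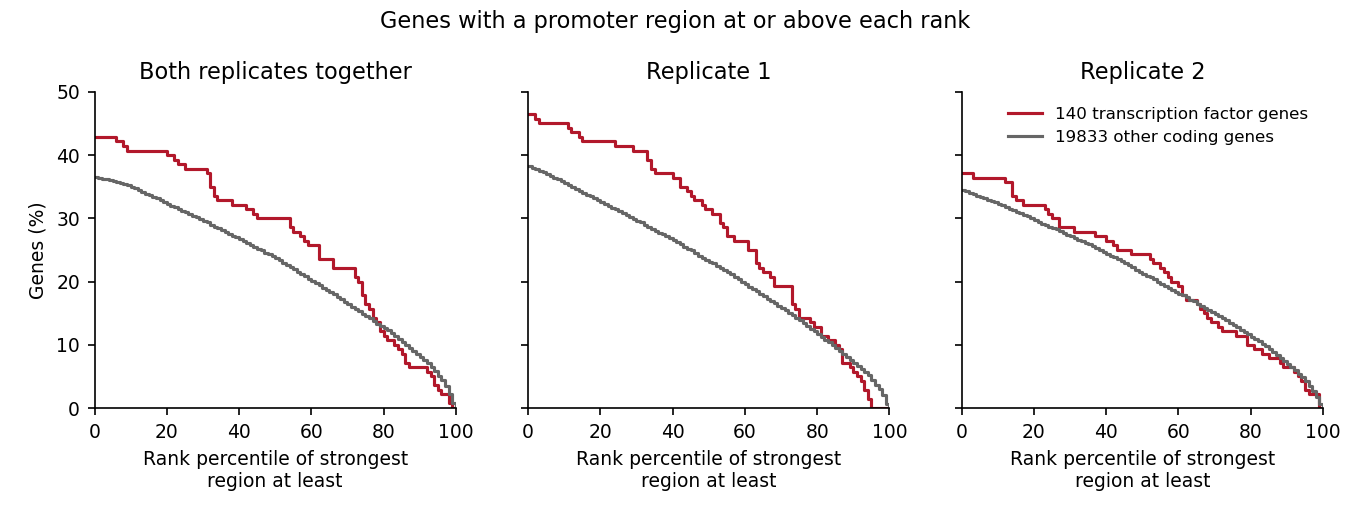
Share of genes (%) whose strongest region in the 500 bp window has at least the rank percentile on the x axis, for the 140 transcription factor genes (red) and the 19833 other coding genes (grey), in the pooled ranked list and in each replicate. The red curve starts at 42.9%, 46.4% and 37.1%, above the grey one at 36.5%, 38.2% and 34.5%, and at the 90th percentile it lies below, at 6.43%, 5.71% and 6.43% against 8.11%, 7.15% and 6.93%. In replicate 2 it is above the grey one again at the 98th percentile, at 2.14% against 1.79%.

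Among the homeobox genes named ceh, 28 of 63 (44.4%) had a region in the 500 bp window of the pooled ranked list, with signals from 7.73 at ceh-49 to 58.8 at ceh-38 and a median of 22.7. After ceh-38 came ceh-39 with 50.6 and then ceh-37 with 31.0. ceh-38 and ceh-39 were named because they passed the threshold, so their place above the others was in part fixed by that choice. In the 2000 bp window the pooled signals of ceh-20 (58.6), ceh-58 (55.6), ceh-44 (53.0) and ceh-2 (51.8) were above that of ceh-39. The 6 Hox genes pattern the body from head to tail. Of these, egl-5 had a pooled signal of 29.8, php-3 27.3 and nob-1 16.1, and ceh-13, lin-39 and mab-5 had no region in the window. In the replicates egl-5 had 12.2 in replicate 1 and 17.2 in replicate 2, php-3 had 15 and nob-1 18.7 in replicate 1 and neither had a region in replicate 2, and for lin-39 (14.3, replicate 2) and mab-5 (9.02, replicate 1) 1 replicate had a region. No Hox gene was in the top 10% of the pooled ranking. The gene flt-1 itself lies between Hox genes of chromosome III, 92.5 kb from ceh-13 and 120.8 kb from mab-5. No source used here gives the ends of the fosmid. pal-1, the Caudal gene of posterior lineages, had a pooled signal of 27.1, with 16.9 in replicate 1 and 13.6 in replicate 2. vab-7, the Even-skipped gene, had 20.6, with 18.2 in replicate 1 and no region in replicate 2.

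Of the basic helix-loop-helix genes, 10 of 25 (40%) had a region, from 16.4 at hlh-6 to 62.9 at hlh-1 with a median of 27. hlh-30, the relative of TFEB that acts in autophagy and lipid use, had 36.9 in the pooled list, with 23.5 in replicate 1 and 21.6 in replicate 2. hlh-8, the Twist gene of the mesoderm, had 34.8, with 18.3 in replicate 1 and 12.1 in replicate 2. hlh-2, the partner that many of these proteins share, had no region within 500 bp and a pooled signal of 35.2 within 2000 bp. Of the muscle regulators unc-120, an SRF-type factor, and hnd-1, unc-120 had 21.4 in the pooled list and 12.3 in replicate 1 alone, and hnd-1 had 12.9 in replicate 2 alone. Of the muscle genes in the set, hlh-1 was therefore the one with a thresholded peak.

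Of the T-box genes, 5 of 19 (26.3%, 9.15 to 51.2) had a region in the pooled ranked list, with 8 (42.1%) in replicate 1 and 4 (21.1%) in replicate 2. tbx-41 had a pooled signal of 40.5, with 21.6 in replicate 1 and 22.0 in replicate 2, and tbx-2, which acts in the pharynx, had 36.1, with 15.7 in replicate 1 and 15.8 in replicate 2. tbx-35, which acts in the MS lineage downstream of the med genes, had no region in any ranked window or intron of the pooled list, and tbx-37 had none within 500 bp. The forkhead genes had a region at 5 of 10. fkh-8, a factor of ciliated neurons, led with 42.1, with 23.7 in replicate 1 and 23.1 in replicate 2, and pha-4, the FoxA gene of the pharynx, had 30.3, with 22.7 in replicate 1 and 12.5 in replicate 2. Of the 3 sox genes, sox-2, which acts in neural progenitors, had 36.8, with 17.9 in replicate 1 and 19.7 in replicate 2. The IDR of the pooled regions of fkh-8, tbx-41, hlh-30, sox-2 and tbx-2, the 5 strongest below the threshold in the 500 bp window, was 0.174, 0.642, 0.124, 0.221 and 0.671, so each was above 0.05.

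In the endoderm chain, none of the 4 end and med genes had a region in the 500 bp window of the pooled ranked list, against 36.5% of other coding genes. In the 2000 bp window 2 of the 4 had one (50%), against 59.7%. A set of 4 genes is too small to show a difference from other genes. med-1 and med-2, which act in the EMS lineage under SKN-1, had no region in the 500 bp or the 2000 bp window or an intron of the pooled ranked list. These 2 genes are near-identical copies with 24.2% repeated sequence in the 500 bp window, so their values are uncertain. end-1 and end-3, the next genes of the chain, had none in the 500 bp window; in the 2000 bp window end-1 had 20.1 and end-3 had 23.9. In replicate 2 the wider window gave 19.3 at end-1 (percentile 91.5), 20.8 at end-3 (percentile 93.4) and 9.27 at med-2 (percentile 33.6), and in replicate 1 it gave 19.3 at end-3 (percentile 84.02) and no region at the other 3 genes. In the wider window end-1 and end-3 were thus in the top 10% of replicate 2 and not of the pooled list. At end-1 the summit lay at -1348 bp in replicate 2 and -1355 bp in the pooled list. At end-3 it lay at -1105 bp in replicate 2, but at -1931 bp in the pooled list and -1952 bp in replicate 1. The end-3 value of replicate 2 is therefore from a different region. Within 500 bp the replicates gave 1 region for these 4 genes, at end-1 in replicate 2 (11.9). elt-2, the main GATA factor of the intestine, had no region in either window of the pooled ranked list. Its relative elt-7 had 13.6, with none in replicate 1 and 12.8 in replicate 2. Of the epidermal GATA genes, elt-1 had 25 (20.01 in replicate 1 and 7.30 in replicate 2), elt-3 had 14.7 (8.83 and 5.85) and elt-6 had 22.3 (20.8 and 16.3). elt-4 had a region in replicate 1 alone (9.21). The GATA genes elt and the end and med genes together were all below the top 10% within 500 bp. In the 2000 bp window 1 of the 6 elt genes (16.7%) was in the top 10% of the pooled list, against 14.8% of other coding genes. This was elt-6, with 47.9 (percentile 96.8). In that window 0 elt genes were in the top 10% of replicate 1 and 2 in that of replicate 2, against 13.9% and 13.0% of other coding genes.

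**Figure D2:**
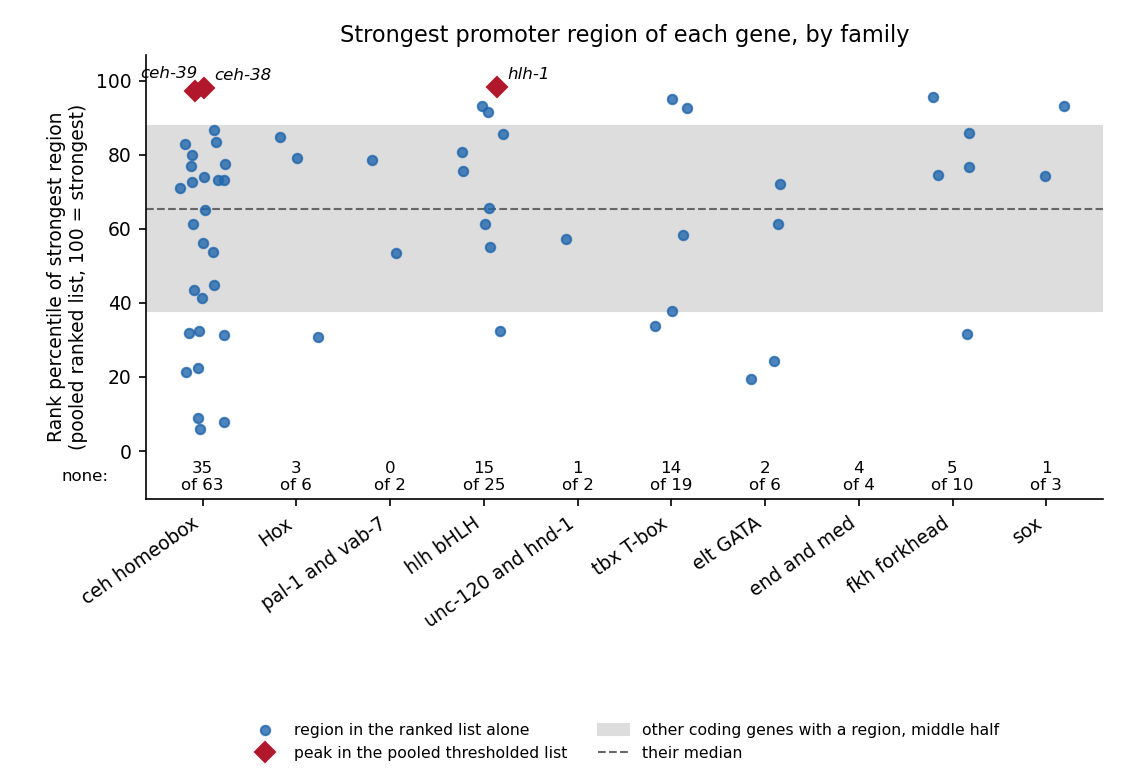
Rank percentile of the strongest region in the 500 bp window of each gene (pooled ranked list, y axis, 100 = strongest) by family (x axis), with the 3 genes that had a thresholded peak as red diamonds and the number of genes with no region under each family. The grey band and dashed line are the quartiles (37.8 and 87.7) and median (65.2) of other coding genes with a region; hlh-1, ceh-38 and ceh-39 lie at 98.1, 97.9 and 97.2, and all 4 end and med genes are without a region.

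The replicates agreed in part at these genes. Both ranked lists had a region in the 500 bp window of 32 of the 140 genes (22.9%), against 20.9% of other coding genes, and at 24 of the 32 the strongest regions overlapped. A further 33 genes had one in replicate 1 only and 20 in replicate 2 only, and 55 had none in either. Across the 32 genes the percentiles had a Spearman's rho of 0.394 and a Pearson's r of 0.271, against 0.465 and 0.348 across the 4150 other genes with both. These describe genes of the same 2 libraries. The median difference of a gene's 2 percentiles was 19.95, against 18.5 for other coding genes.

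**Figure D3:**
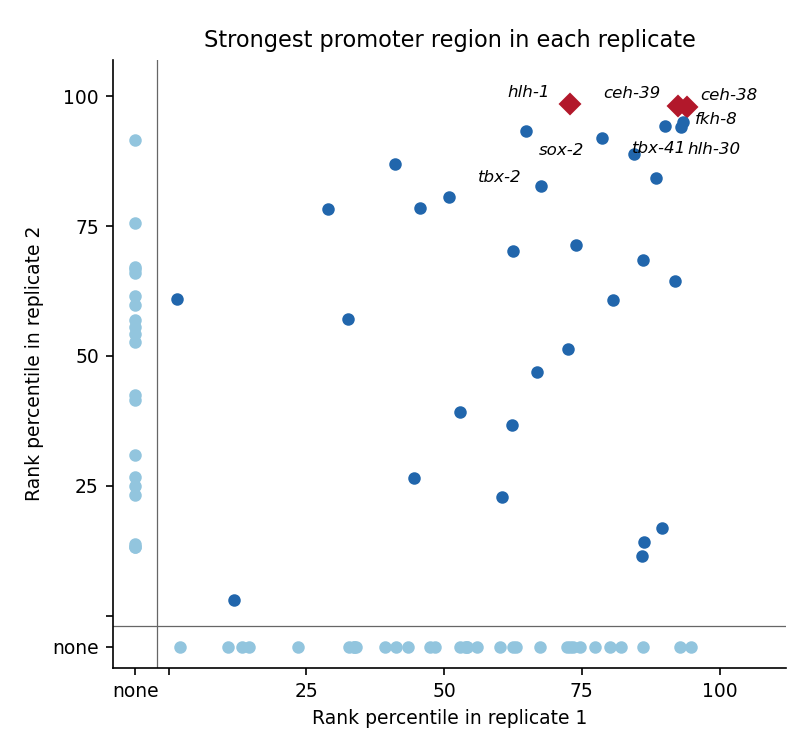
Rank percentile of the strongest region in the 500 bp window in replicate 1 (x axis) and replicate 2 (y axis), 1 point for each gene with a region in at least 1 replicate; red diamonds are the 3 genes with a pooled thresholded peak, dark blue points have a region in both replicates and light blue points in 1, placed at "none" for the other. hlh-1 lies at 72.9 in replicate 1 and 98.6 in replicate 2, and the 33 light points on the lower edge and 20 on the left edge have no match in the other replicate.

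Genes differ in how much sequence is searched, so summits were also counted per megabase. Thresholded summits fell at 22.6 per megabase (4.67 to 66.1) in the 500 bp windows of the transcription factor genes, against 27.05 (24.6 to 29.7) for other coding genes. In the 2000 bp windows the rates were 8.08 (1.67 to 23.6) and 15.9 (14.8 to 17.2). At the rate of the other genes the 2000 bp windows of the 140 genes would hold 5.92 summits, where 3 were seen. Their introns, 0.267 megabases in all, held 0 thresholded summits (up to 13.8 per megabase), against 8.57 (7.55 to 9.70) in other genes, whose rate would give 2.29. With so few summits the intervals hold the rate of the other genes in each of the 3 kinds of sequence, so a lower rate was not detectable in the pooled list. Regions of the pooled ranked list went the other way. In the 2000 bp windows they numbered 571 per megabase (497 to 653), against 493 (486 to 499.5), an interval above the rate of the other genes, and likewise 592 (517 to 676) against 500.01 in replicate 1, while in replicate 2 the interval of 477 (409 to 552) held the 419.5 of the other genes. The introns of the 140 genes held 588 per megabase (500.01 to 688), against 488 (480.0 to 496), and the 500 bp windows 656 (526 to 810), against 540 (529 to 552), which the interval holds. The intron difference was there in replicate 1, with 607 (517 to 708) against 482 (474 to 490), and was not clear in replicate 2, with 487 (407 to 579) against 416 (409 to 424).

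**Figure D4:**
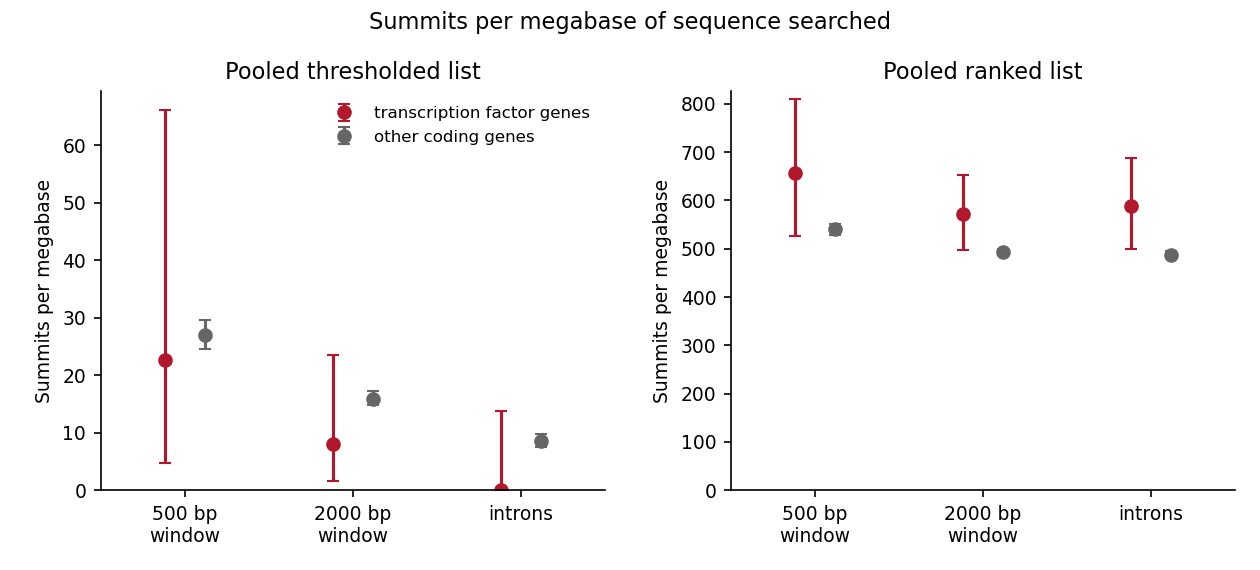
Summits per megabase (y axis) in the 500 bp windows, the 2000 bp windows and the introns of transcription factor genes (red) and other coding genes (grey), in the pooled thresholded list and the pooled ranked list; bars are exact 95% Poisson intervals. In the thresholded list the red points (22.6, 8.08 and 0) lie below the grey ones (27.05, 15.9 and 8.57) with intervals that hold them, and in the ranked list the red points (656, 571 and 588) lie above (540, 493 and 488).

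The strongest intronic regions were at ceh-43, the Distal-less gene, with a pooled signal of 46.6 (percentile 96.6), then at fkh-7 with 39.7, ceh-100 with 35.4, ceh-53 with 35 and hlh-1 with 34.9. The strongest intronic region was 23.5 in replicate 1 and 15.6 in replicate 2 at ceh-43, and 20.6 in replicate 1 and 18.1 in replicate 2 at fkh-7. hlh-1 had none in replicate 1 and 21.2 in replicate 2. The number of intronic regions did not simply follow intron length. There were 16 pooled regions in the 17.7 kb of hlh-30 introns and 9 in the 22.7 kb of fkh-7 introns. ceh-18 had 2 in 11.9 kb and ceh-43 had 5 in 2.28 kb. The relation to intron length was not tested.

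Most of the strongest regions lay upstream of the starts. The window itself runs from 500 bp upstream to 200 bp downstream, so this was in part fixed by the rule. The strongest region in the 500 bp window had a median summit position of -205 bp, upstream in 54 of 60 genes, against -157 bp and 5537 of 7231 in other coding genes. Per gene, regions were densest from 200 bp upstream to the start (0.221 per gene, against 0.161) and in the 200 bp before that (0.200, against 0.138).

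**Figure D5:**
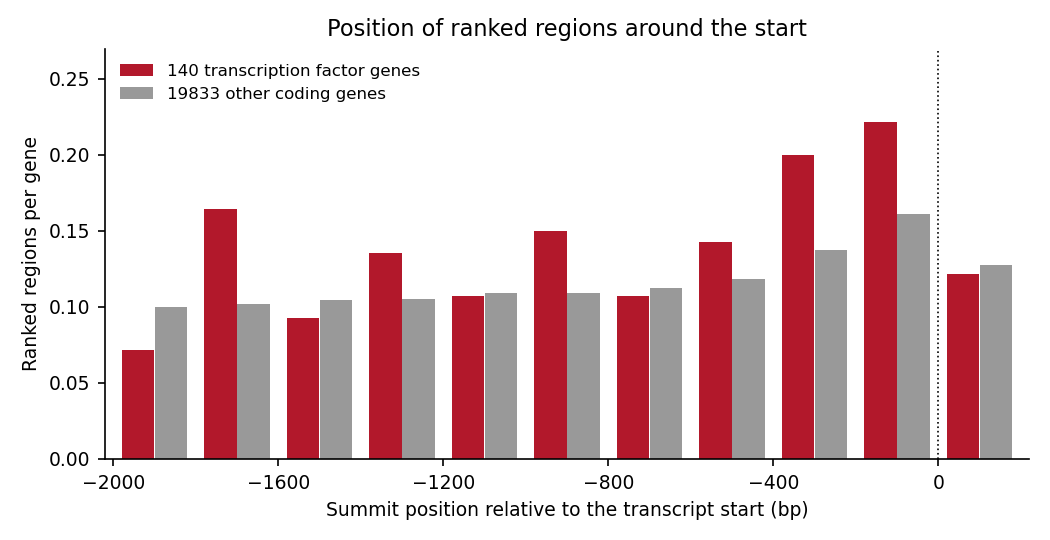
Regions of the pooled ranked list per gene (y axis) in bins of 200 bp by summit position relative to the transcript start (x axis, negative upstream), for the 140 transcription factor genes (red, 212 regions) and the 19833 other coding genes (grey). Both sets peak in the bin just upstream of the start, at 0.221 and 0.161 regions per gene.

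Transcription factor genes are set apart from their neighbours, and their part in the counts was not tested. The distance to the next gene upstream had a median of 2325 bp, against 930 bp for other coding genes. A coding gene that starts on the other strand within 1000 bp was present at 10 of 140 genes (7.14%), against 17.8%. Among the genes with such a neighbour, 1 of 10 had a peak in the 500 bp window, which was ceh-38, against 8.42% of other coding genes. Among those without, 2 of 130 (1.54%) had one, against 1.69% of other coding genes. With so few peaks, these shares cannot show whether the genes of either arrangement differ from other coding genes. A stretch of 32 bases in the 500 bp window that recurs in the genome was present in 26 genes (18.6%), against 25.8% of other coding genes. More than 10% of the stretches in that window recur in 15 genes (10.7%), against 11.1% of other coding genes. Of these 15, 2 had a region (13.3%), against 27.5% of other coding genes with as many repeats, and of the others 58 (46.4%), against 37.6% of other coding genes with as few. tbx-30 and tbx-42 (100% repeated), hlh-28 and hlh-29 (90.4%) and med-1 and med-2 (24.2%) have near-identical copies, so their values are uncertain. No source used here says how their reads were assigned.

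The nearest peak of the pooled thresholded list lay at a median of 34.5 kb from a start of these genes, against 38.6 kb for other coding genes, and within 5 kb of 10 genes (7.14%), against 11.2%. Of the 7 besides the 3 named above, ceh-21 was 3714 bp from the ceh-39 peak, and med-2, hlh-27 and ceh-89 had a peak within 5 kb that lay by a tRNA or snRNA gene. At med-2 that peak had a signal of 197 and lay within 250 bp of the tRNA gene K04C2.t3, 3273 bp from the med-2 start. By chromosome, regions in the 500 bp window were at 10 of 18 genes on V (55.6%), against 26.3% of other coding genes there, and at 4 of 17 on IV (23.5%), against 34.1%. On the other chromosomes they were at 5 of 12 genes on I (41.7%), against 45.1%, 11 of 23 on II (47.8%), against 37.9%, 16 of 31 on III (51.6%), against 45.9%, and 14 of 39 on X (35.9%), against 37.96%. The sign of the difference thus varied between chromosomes.

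Other genes of these pathways and families were counted in 5 lists. Of 34 maternal and early lineage genes, 2 had a thresholded peak in the 500 bp window and 6 in the 2000 bp window (17.6%, 6.76 to 34.5). In an intron 5 had one (14.7%, 4.95 to 31.1). The counts were 3, 3 and 0 of the 140 transcription factor genes, and the shares 2.88%, 5.03% and 1.17% of other coding genes. This list was chosen with earlier results of these data known, so its shares are no test of a difference. Its genes had a median length of 4.365 kb, against 2.026 kb for other coding genes, and no rate per megabase was computed for it. The same peak of die-1 counts in the 2000 bp window and in an intron. mom-1, which acts in Wnt secretion, had peaks in both replicate lists at -775 bp from a start, by the tRNA gene T07H6.t2 (signal 363), and in an intron with no such gene near (X:6296430-6296659, signal 108). mex-1, a maternal CCCH finger protein, had a peak in both replicates at -911 bp (II:11967611-11967840, signal 79.5), which also lay in the promoter of W03C9.5. lit-1, the Nemo-like kinase that acts on POP-1, had one in replicate 1 alone at -32 bp (III:13713898-13714127, signal 58.8) and one in both replicates in an intron (III:13721217-13721446, signal 64.8). zip-7, a bZIP gene, had an intronic peak in both replicates (signal 98.8). The peak at die-1, within 250 bp of a snoRNA gene (signal 74.03), was in replicate 1 alone, and those at pop-1, the TCF gene of Wnt signalling (signals 75.1 and 64.1), and at nhr-25 (signal 47.3) were in neither replicate list. Of these 7 genes, mom-1, mex-1, lit-1 and zip-7 thus had a peak in both replicate lists.

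In the other 4 lists the counts were small. The shares of other coding genes were 2.88% in the 500 bp window, 5.03% in the 2000 bp window and 1.17% in introns. Homeobox genes under other names had 1 of 31 in the 500 bp window, psa-3 (signal 35.3), whose peak was in neither replicate list. Basic helix-loop-helix genes under other names had 1 of 14, mdl-1 (signal 105), whose peak was in both replicates. T-box, GATA, forkhead and sox genes under other names had 0 of 11, with the intronic peak of egl-18. Nuclear hormone receptors had 4 of 269 (1.49%, 0.407 to 3.76) in the 500 bp window, 8 in the 2000 bp window and 1 in an intron. The 4 were nhr-41 by a tRNA gene (signal 219), nhr-47 (signal 74.7), nhr-32 (signal 60.9) and nhr-25 (signal 47.3), the FTZ-F1 receptor, which is in the maternal and early lineage list too.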

How the data were processed

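Immunoprecipitated DNA of 2 biological replicates, numbered as in the labels, was sonicated to 200 to 800 bp. The authors deposited peak lists on ce11, the WBcel235 sequence, per the file headers and the deposited file lists: a ranked and a thresholded list for each replicate, and a pooled ranked, a pooled thresholded, a conservative thresholded and a replicate-against-replicate ranked list for both. The deposited signal column has no stated scale. The deposited score column was within 1 of 125 times the log2 of 1/IDR, and the deposited −log10 IDR column reaches 5; scores of 540 and 830 stand for IDR of 0.05 and 0.01. The pooled ranked list was told from the replicate-against-replicate list by its input signals, found in the replicate 1 list for 3.01% and 62.5%. The sources used here do not give the aligner, the peak caller or their versions. A possible control named in the labels was not analysed here.

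Summits were set against Ensembl 115 gene models, with RefSeq names matched for 46881 of 46926 genes. A promoter runs from 500 or 2000 bp upstream to 200 bp downstream of any annotated start. An intronic summit lies in an intron and in no exon of a protein-coding gene and no 500 bp promoter; RNA genes inside introns were kept, and an alternative takes their exons out. The 20 mitochondrial peaks of replicate 2 were left out. With 1 group there is no test over samples. Named are the members with a thresholded peak in any pooled or replicate list, the 5 others with the strongest pooled region in the 500 bp window, and the Hox, end, med and elt genes. Other genes were added as examples by family after their values were seen. The members, lists and motifs were chosen with earlier results of these data known. Alternatives were other lists, thresholds, overlaps, windows, starts and symbols. Counting rules were tested on simulated data. Python 3.11.15, NumPy 2.4.6, SciPy 1.17.1 and Matplotlib 3.10.9 were used. Coordinates are 1-based.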

Additional observations from a re-analysis of the deposited data

How the results depend on the processing

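The count of 3 genes in the 500 bp window was unchanged or 2 in 9 of 15 alternative settings, and the same 3 genes were found with an IDR of 0.05 or 0.01 on the pooled ranked list, without peaks near tRNA, snRNA and snoRNA genes, with Ensembl symbols, with the nearest or the outermost start alone, with any overlap of the window and with 1000 bp upstream. It was 0 to 1 with 1 replicate left out, 1 in the conservative list, 0 at or above the median signal and 0 among peaks overlapped in each replicate list, under both overlap settings. The share of other coding genes, 2.88% in the main setting, was lower in these settings too. It was 1.53% to 1.88% with 1 replicate left out and 2.65% in the conservative list. At or above the median signal it was 1.36%, and with overlap by 1 bp 0.943%. In the 2000 bp window the count of transcription factor genes was 0 to 4 with 1 replicate left out, 5 at an IDR of 0.05, 0 at or above the median signal and 0 among peaks overlapped in both replicates likewise. The shares of other coding genes, in that order, were 2.78% to 3.35%, 6.97%, 2.52% and 1.87% (overlap by 1 bp). The intron count of 0 became 1 at an IDR of 0.05, against 1.76% of other coding genes, and stayed 0 in the other 11 settings. With promoter and intron together the count was 0 to 4 with 1 replicate left out, 6 at an IDR of 0.05, 0 at or above the median signal and 0 with either overlap. Other coding genes had 3.49% to 4.09%, 8.28%, 3.16% and 2.47% (overlap by 1 bp) in these settings. The median percentile of 71.5 was 60.8 to 62.5 with 1 replicate left out and 66.9 in the replicate-against-replicate list, against 66.1 for other coding genes. Over all 140 genes in the 2000 bp window, with 0 for no region, it was 52.1, against 34.7, a setting chosen after seeing the data. The cause of these shifts was not tested. Over the genes with a region in the 2000 bp window, the median percentile was 70.8, against 71.8 for other coding genes, the opposite order. Depth is unknown. In the pooled list no share below that of other coding genes was detectable, whereas the joint count of the conservative list, and the 2000 bp and joint counts of replicate 1, had upper bounds below the share of other genes. These are a few of the many counts made. Per megabase, the replicate 1 interval in the 2000 bp windows (up to 9.93) held the 8.56 of other coding genes. In replicate 2 the rate there was 10.8 (2.93 to 27.6), against 10.4. No rate per megabase was computed for the conservative list.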

Other observations

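Both ceh genes with a pooled peak are of the ONECUT class, and ceh-44 of replicate 2 is of the related cut type, so the 7 cut-class genes of the set were looked at together after these values had been seen, and no test was made. ceh-38 and ceh-39 had pooled signals of 58.8 and 50.6 in the 500 bp window. ceh-44 had 22.3 there and 53.0 in the 2000 bp window. ceh-49 had 7.73 in the 500 bp window, and ceh-21 had no region there but 29.6 in the 2000 bp window. ceh-41 and ceh-48 had no region in either window of the pooled ranked list. ceh-21, ceh-39 and ceh-41 lie close together on chromosome X, with T26C11.9 next to ceh-21, and of these 3 genes ceh-39 was the one with a peak, while ceh-21 lay 3714 bp and ceh-41 7775 bp from it.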
